A study of Mus musculus with 2 samples.

Results

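The 4 nuclear factor I genes (Nfia, Nfib, Nfic and Nfix) and the 4 Ebf genes (Ebf1, Ebf2, Ebf3 and Ebf4) of the mouse were followed over the neuron and glial classes of the locus coeruleus. These 8 of the 32285 genes of the count matrices were picked by symbol, and they were picked knowing that some of them differ between these cells, Ebf1 in noradrenergic neurons among them. The locus coeruleus is a small nucleus of the pons whose noradrenaline neurons project to nearly the whole brain. Tissue came from wild type C57BL/6N mice, both sexes, aged 3 to 4 weeks, with no treatment named, and gave 2 droplet libraries that the labels call LC1 and LC2 and place in batch 1 and batch 2; they are library 1 and library 2 here. The labels describe dissociated cells fixed in methanol and also sorted nuclei, without saying which library is which, and do not give the number of mice in a library.

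Nuclear factor I proteins bind DNA as dimers at palindromes of the letters TTGGC and GCCAA. Nfia is known for starting glial development in the spinal cord, Nfib and Nfix for glial and neuronal maturation in the forebrain and cerebellum, and Nfic for tooth root formation. Ebf proteins are helix-loop-helix relatives that bind a palindrome of their own. Ebf1 is best known for B cell development and is also a pericyte factor, Ebf2 for brown fat and for cerebellar and migrating neurons, and Ebf3 for neuronal differentiation, while Ebf4 is the least described of the family.

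Library 1 held 304 barcodes with a median of 11010 unique molecular identifiers (UMIs, single captured RNA molecules), and library 2 held 2796 with a median of 1517, and the libraries shared 0 barcodes. The series text states 2578 cells in all, against 3100 barcodes in the matrices and 2974 kept here. Cells were put in classes from UMIs of marker genes, none of which is a nuclear factor I or Ebf gene, and every class is written as "like" its type for that reason. The class sizes in library 1 and library 2 were 12 and 86 noradrenergic-like, 66 and 77 excitatory-like (Slc17a6), 34 and 147 inhibitory-like, 37 and 48 granule-like (of the cerebellum) and 11 and 37 trigeminal-like neurons (of the mesencephalic nucleus), and 15 and 250 astrocyte-like, 39 and 694 oligodendrocyte-like, 11 and 60 oligodendrocyte precursor-like, 13 and 49 ependymal-like and 5 and 145 endothelial-like cells. Another 47 of 294 and 1054 of 2680 kept cells were in no class, 34 and 798 of them neurons. The summed level of Dbh, Th, Slc6a2 and Slc18a2, which make and carry noradrenaline, was 8257 and 6029 counts per 1000000 UMIs (CPM) in noradrenergic-like neurons and at most 163 in the other classes named. Levels below are CPM of the summed UMIs of a class, first library 1 and then library 2, and compare classes within a gene only, since a 3′ count does not rank genes against each other. Differences are log2 folds, tested with the quasi-likelihood test of edgeR and adjusted over 9525 genes after Benjamini and Hochberg, at 0.05. The standard error (SE) beside a fold was derived from that test, as the absolute log2 fold divided by the square root of its F statistic. It is not a spread measured between the 2 libraries, and for a class with few UMIs it can be smaller than counting error alone. There are 2 libraries from unstated numbers of mice. SEs and p-values rest on the spread of class sums left after a shift between the libraries is taken out. That spread is pooled over the classes and moderated over genes by edgeR, and does not measure a spread between mice.

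The 8 genes lie on 7 chromosomes of GRCm38: Nfia at chr4:97772734-98118874 on the plus strand, Nfib at chr4:82290173-82705750 on the minus strand, Nfic at chr10:81396186-81455635 (minus), Nfix at chr8:84699876-84800344 (minus), Ebf1 at chr11:44617317-45008091 (plus), Ebf2 at chr14:67233292-67430918 (plus), Ebf3 at chr7:137193673-137314445 (minus) and Ebf4 at chr2:130295169-130370481 (plus). Of the genes, 7 overlap other counted genes on the opposite strand, and Nfib also holds Gm11267, an intronic gene on its own strand, so reads of an overlap could be shared there. RefSeq (GRCm38.p6) gave 10 start sites for 6 of the genes, with none for Nfib and Ebf2. The full nuclear factor I palindrome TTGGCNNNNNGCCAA was in 0 of these 10 windows from 250 bases before to 50 after the start, and in 0.0365% of all 32851 windows in the table. The Ebf palindrome TCCCNNGGGA was likewise in 0 of 10, and in 0.904% of all. The shorter letters TTGGC or GCCAA (one is the reverse complement of the other, so both strands are covered) were in 3 of 10 windows from 100 bases before to 25 after the start, against 24.6% of all. Those 3 windows are printed 5′ to 3′ on the gene's strand because they carry nuclear factor I letters at the start site of a member of either family, with the letters in capitals. The start site is base 1, and the base before it is -1.
Ebf1 (chr11:44618000-44618124, plus strand, letters at -7 to -3): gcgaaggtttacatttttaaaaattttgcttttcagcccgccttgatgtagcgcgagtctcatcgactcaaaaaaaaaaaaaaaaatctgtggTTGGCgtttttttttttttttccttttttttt
Ebf3 (chr7:137314421-137314545, minus strand, letters at -4 to 1): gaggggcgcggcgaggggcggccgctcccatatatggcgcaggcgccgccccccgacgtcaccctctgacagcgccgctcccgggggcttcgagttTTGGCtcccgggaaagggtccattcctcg
Nfix (chr8:84772851-84772975, minus strand, letters at -5 to -1 and at 4 to 8): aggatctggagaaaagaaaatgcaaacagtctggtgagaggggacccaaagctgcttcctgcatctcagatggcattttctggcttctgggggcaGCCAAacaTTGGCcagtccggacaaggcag
A match is a description of the letters, and no binding was measured. In the other 7 windows, those of Nfia, Nfic, Ebf4, a second start of Ebf1 and 3 more of Nfix, these letters were not found.

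Noradrenergic-like neurons had almost no Nfia, Nfib, Nfix or Ebf2 and little Ebf3. Nfia was 3.04 and 10.9 CPM there against 22.2 and 70.85 in excitatory-like neurons, 3 and 8 UMIs in all. Nfib was 1.01 and 6.80 CPM against 25.5 and 75.0. Ebf2 was 1.01 and 6.80 CPM against 240.5 and 291.7. In each of these the noradrenergic-like level of both libraries lay below the excitatory-like level of both. Ebf3 was 6.07 and 27.2 CPM against 180.3 and 97.9, again without overlap. Nfix was 2.02 and 2.72 CPM against 3.92 and 29.2, so the gap in library 1 rests on 2 UMIs in one class and 6 in the other, 5 of these in 1 cell. Without that cell the excitatory-like level of Nfix in library 1 was 0.676 CPM, below the noradrenergic-like level there. Ebf2 had the largest difference of the 8, at -6.21 ± 0.46 (SE, 2 libraries, edgeR adjusted p = 2.23e-31), which is 74.2-fold lower. That fold rests on 1 and 5 noradrenergic-like UMIs, 3 of the 5 in 1 cell, against 508 excitatory-like UMIs in all. The pooled ratio was 0.0138, with a 95% counting interval of 0.00503 to 0.0302. Nfib also had 1 and 5 noradrenergic-like UMIs, against 75 in all. Its pooled ratio was 0.0933, with an interval of 0.0332 to 0.213. The log2 fold was -3.55 ± 0.57 for Nfib (edgeR adjusted p = 5.8e-08), -3.24 ± 0.38 for Ebf3 (edgeR adjusted p = 4.04e-14) and -2.60 ± 0.53 for Nfia (edgeR adjusted p = 2.65e-05). Nfix passed at -2.18 ± 0.76 (edgeR adjusted p = 0.0302), but its call was lost with DESeq2, with no filter on low counts and with 2 times the marker UMIs, where the log2 fold was -2.35, -2.16 and -1.07.

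Nfic and Ebf4 were the exceptions in noradrenergic-like neurons. Nfic was 73.9 and 78.9 CPM against 43.1 and 45.8 in excitatory-like neurons, a log2 fold of 0.72 ± 0.33 that did not pass (edgeR adjusted p = 0.12) but did with RLE scaling or only both classes in the fit. With 2 times the marker UMIs it passed in the opposite direction, at -1.09 (edgeR adjusted p = 0.0096). Under that gate the excitatory-like class had 130.2 and 215.4 CPM of Nfic. Ebf4 was 18.2 and 17.7 CPM against 14.4 and 20.8, with overlapping libraries. Of the 7 genes other than Ebf1, 5 were thus lower and 0 higher, where 17.1% of all genes tested passed, 8.65% higher and 8.45% lower.

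Ebf1, already known to be low in these neurons, is given here as levels, and its call is not used. Its level was 37.5 and 13.6 CPM, against 235.9 and 300.1 in excitatory-like neurons. All 37 UMIs of library 1 came from 1 of the 12 cells, and the other 11 had 0. That cell held 70041 UMIs, among them 106 of Dbh and 117 of Slc6a2, with 4 of Ebf3, 0 of Ebf2 and 0 of Nfia, Nfib and Nfix, and 0 of the endothelial markers Cldn5 and Flt1. It also held 7 UMIs of Slc17a6, the excitatory-like marker, which was at 11.1 CPM in the whole class of library 1. Of the trigeminal markers it held 3 of Piezo2 and 1 of Avil, and 0 of Pou4f1, Prrxl1 and Tlx3. The source of its Ebf1 UMIs was not tested. In library 2, the 10 Ebf1 UMIs lay in 8 of 86 cells, with at most 3 in one cell.

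**Figure D1:**
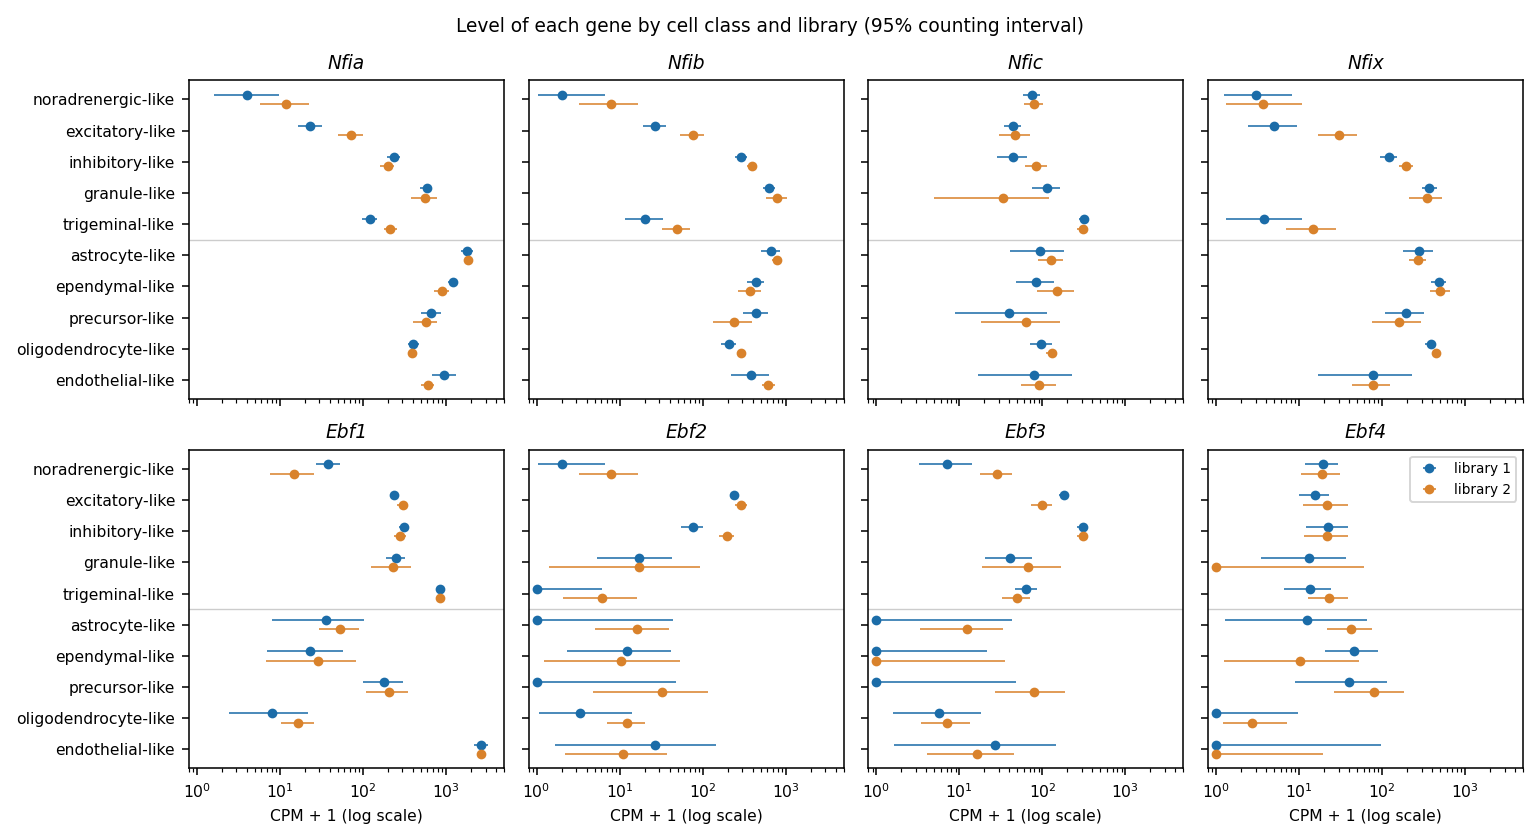
Level of each of the 8 genes (CPM + 1, log axis) in the 10 classes with at least 5 cells in both libraries. Points are libraries and bars the 95% exact Poisson interval, which covers counting error only; in noradrenergic-like neurons Nfia, Nfib, Nfix and Ebf2 lie at or below 10.9 CPM in both libraries.

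Every cell was also thinned to 1000 UMIs. A UMI of Nfia then appeared in 0 of 12 noradrenergic-like cells of library 1. A limit of 3 cells of 12 for this 0 is a share of 25%, and the 95% exact binomial interval reached 26.5%. In library 2 it appeared in 1 of 80 noradrenergic-like cells (1.25%, 95% exact binomial interval 0.0316 to 6.77%). In excitatory-like neurons the share was 1.52% of 66 cells (0.0384 to 8.16%) and 9.09% of 77 (3.73 to 17.8%). The intervals of those classes overlapped in each library, and the shares were not tested against each other. The same share was 80.0% of 15 and 77.2% of 127 astrocyte-like cells (51.9 to 95.7% and 68.9 to 84.1%). Unthinned, a UMI of Nfia was in 16.7% and 8.14% of noradrenergic-like cells and in 100% and 78.4% of astrocyte-like cells. Thinning left out 6 of 86 noradrenergic-like and 123 of 250 astrocyte-like cells of library 2, and none of library 1. For Ebf3 the thinned share of library 2 was 5% of 80 noradrenergic-like cells (1.38 to 12.3%), against 1.58% of 127 astrocyte-like (0.191 to 5.57%), 0.357% of 561 oligodendrocyte-like and 3.70% of 27 precursor-like cells. The noradrenergic-like and astrocyte-like intervals overlapped, and these Ebf3 shares were not tested against each other.

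**Figure D2:**
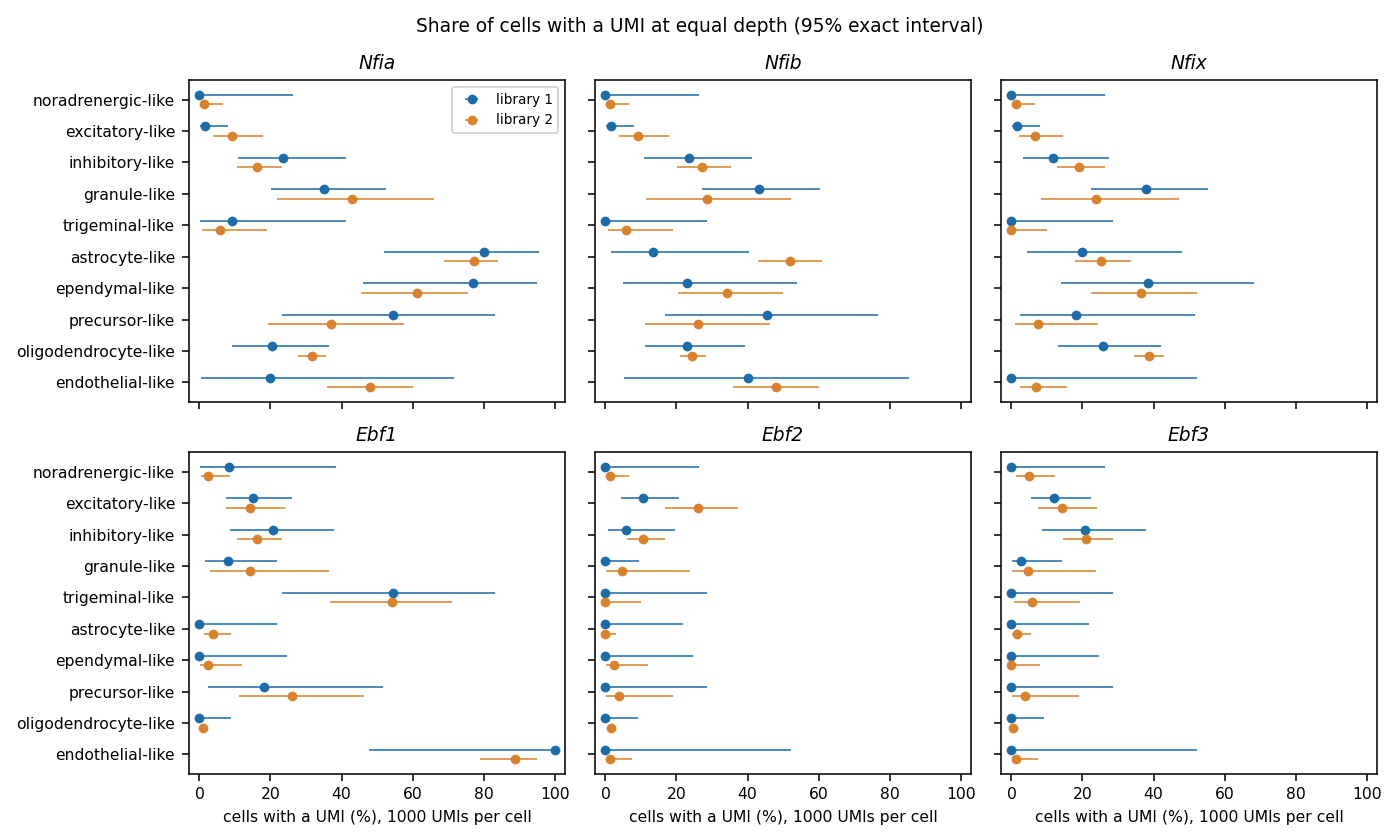
Share of cells (%) with at least 1 UMI of 6 of the genes after each cell was thinned to 1000 UMIs, by class. Points are libraries and bars 95% exact binomial intervals for counting error; Nfia is in 77.2% of astrocyte-like cells of library 2 and Ebf1 in 88.7% of endothelial-like cells.

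Inhibitory-like neurons, marked by Gad1, Gad2, Slc32a1 or Slc6a5, carried the most Ebf3 of the 10 classes and more nuclear factor I than the excitatory-like ones. Nfia was 233.2 and 197.2 CPM in inhibitory-like against 22.2 and 70.85 in excitatory-like neurons, Nfib 290.2 and 396.2 against 25.5 and 75.0, and Nfix 119.3 and 193.4 against 3.92 and 29.2. None of these ranges overlapped. Nfix rose by 3.72 ± 0.41 (edgeR adjusted p = 1.4e-14), Nfib by 2.96 ± 0.35 (edgeR adjusted p = 3.32e-13) and Nfia by 2.44 ± 0.37 (edgeR adjusted p = 4.61e-08). Ebf3 was 304.4 and 307.1 CPM against 180.3 and 97.9, a log2 fold of 1.08 ± 0.28 (edgeR adjusted p = 0.0194). Ebf2 ran the other way, at 74.8 and 193.4 CPM against 240.5 and 291.7, with -1.13 ± 0.29 (edgeR adjusted p = 0.0173). In all, 4 of the 8 genes were higher and 1 lower, where 1.39% of all genes passed, 0.546% higher and 0.840% lower. The calls of Ebf3 and Ebf2 were lost with DESeq2 and without the library block, which left 3 of the 8 genes in each case, Ebf3 also with no filter on low counts and Ebf2 with 2 times the marker UMIs. Ebf1 did not pass, at 313.3 and 278.7 CPM against 235.9 and 300.1, nor did Nfic and Ebf4. With 2 times the marker UMIs Nfic passed as lower, at -1.69 (edgeR adjusted p = 0.000428).

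The excitatory-like class is shared by this and the other comparisons that use it, so their folds are not independent. Its Nfia, Nfib and Nfix levels were higher in library 2 than in library 1, and its summed oligodendrocyte markers were 18 CPM in library 1 and 144 in library 2. The part of those reads in the nuclear factor I levels was not tested.

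Within the inhibitory-like class, cells with a UMI of Zfhx3, a homeobox factor of maturing neurons, had less Nfia, Nfib and Nfix in both libraries. The split gene and the one for excitatory-like neurons were chosen after values were seen, so the values stand with no test. Other splits looked at were by Slc6a5 in inhibitory-like and by Lmx1b, Lhx9, Onecut2 and Zfhx3 in excitatory-like neurons. Nfib was 168.4 and 105.0 CPM in the 15 and 46 cells with Zfhx3, against 421.0 and 548.3 in the 19 and 101 cells without. Nfix was 58.4 and 38.7 CPM against 184.6 and 274.2, and Nfia 144.4 and 49.7 against 328.7 and 274.2. Ebf1 had the same direction, 178.8 and 160.3 CPM against 457.9 and 340.5, and Ebf3 differed less, 275.0 and 232.1 against 336.0 and 346.3. Nfic was level, 41.3 and 82.9 CPM with Zfhx3 and 44.3 and 83.7 without, and Ebf2 went opposite ways, 96.3 against 51.7 CPM in library 1 and 66.3 against 259.7 in library 2. The median depths of the cells with and without Zfhx3 were near each other, 14379 and 14537 UMIs in library 1 and 3389 and 2968 in library 2.

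Among excitatory-like neurons, a UMI of Lmx1a, a LIM homeobox factor of dorsal hindbrain lineages, went with Ebf2 and Ebf3 in opposite directions. Ebf2 was 386.6 and 649.5 CPM in the 14 and 14 cells with Lmx1a and 190.8 and 213.4 in the 52 and 63 without. Ebf3 was 23.2 and 11.6 CPM with Lmx1a, on 9 UMIs and 1 UMI, and 233.7 and 116.9 without. Ebf1 was 185.6 and 174.0 CPM with and 253.0 and 327.7 without, lower with Lmx1a in both libraries. Cells with Lmx1a were deeper, with medians of 27661.5 and 5821 UMIs against 17816 and 5140. A split of this class by Lmx1b had the same directions for Ebf2 and Ebf3 in both libraries. With Zfhx3, Lhx9 or Onecut2, Ebf2 and Ebf3 were both lower in both libraries. For Zfhx3, Ebf2 was 184.1 and 126.0 CPM with and 556.1 and 504.5 without, and Ebf3 147.9 and 59.3 against 362.1 and 147.5.

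**Figure D3:**
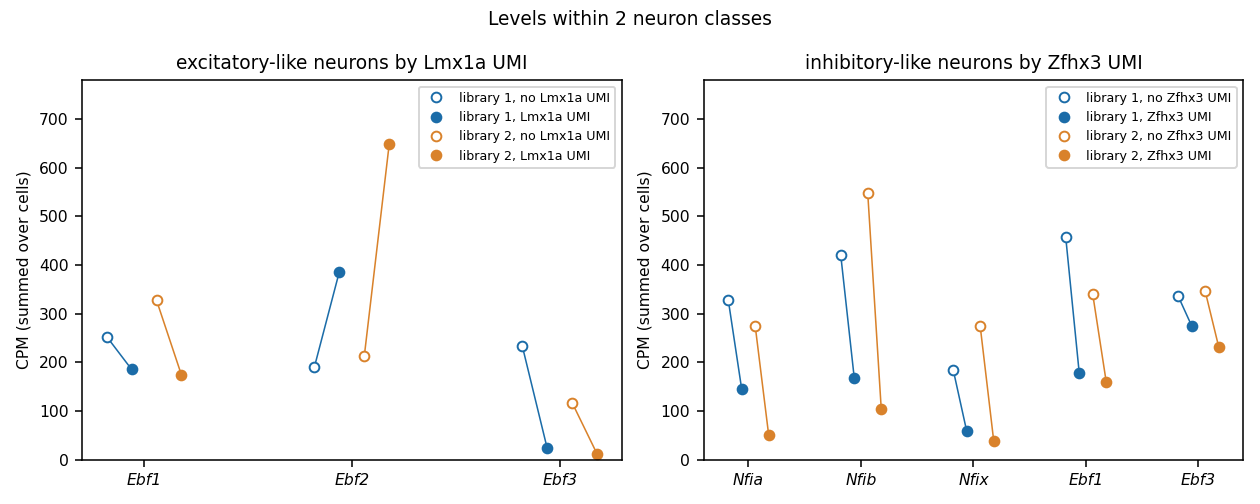
Summed level (CPM) in excitatory-like neurons split by a UMI of Lmx1a (left) and inhibitory-like neurons split by a UMI of Zfhx3 (right). Open points are cells without and filled points cells with a UMI of the split gene, joined within a library; Ebf2 is higher and Ebf3 lower with Lmx1a in both libraries, and Nfia, Nfib and Nfix are lower with Zfhx3.

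Ebf2 and Ebf3 were often detected in the same excitatory-like cells. Ebf2 and Ebf3 UMIs were found together in 22 of 66 cells of library 1, where 31 and 31 cells had each gene and independence would give 14.6, and in 16 of 77 of library 2, where it would give 10.4. This was the pair with the largest excess of those looked at in this class. Ebf1 and Ebf2 were together in 15 and 12 cells, where independence would give 14.56 and 12.05. For Ebf1 and Ebf3 the counts were 16 and 13, against 14.56 and 9.42. Any of Nfia, Nfib or Nfix was found with any of Ebf1, Ebf2 or Ebf3 in 20 and 17 cells, against 17.77 and 17.9. Cells of this class differ in depth, and its part in these counts was not tested. Neurons that met no class rule, 34 of 199 and 798 of 1197 neuronal cells, had more Ebf2 than any named class, 549.2 and 382.1 CPM, with Ebf3 at 284.5 and 181.8 and Ebf1 at 177.4 and 264.2. Their median depths were 10440.5 and 1959.5 UMIs, against 19247 and 5374 in excitatory-like neurons.

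Granule-like neurons, which belong to the cerebellum next to the dissected tissue, were the neurons with the highest Nfia, Nfib and Nfix. Nfib was 627.3 and 783.0 CPM, Nfia 583.0 and 554.6, and Nfix 369.9 and 342.6. All 6 values lay above those of every other neuron class. Against excitatory-like neurons Nfix was 33.6-fold higher (log2 5.07 ± 0.43, edgeR adjusted p = 4.32e-25), Nfib 16.9-fold (4.08 ± 0.36, edgeR adjusted p = 1.39e-22) and Nfia 15.1-fold (3.91 ± 0.38, edgeR adjusted p = 2.8e-19). Ebf2 was 16.1 and 16.3 CPM, 5 UMIs in all, at -3.78 ± 0.55 (edgeR adjusted p = 2.76e-09), and Ebf3 was 40.2 and 65.3 CPM at -1.58 ± 0.47 (edgeR adjusted p = 0.0104, lost with DESeq2). Ebf1 was 249.3 and 228.4 CPM, near the excitatory-like level, and did not pass at -0.04 ± 0.35. Nfic just passed at 1.18 ± 0.43 (edgeR adjusted p = 0.0477), but it was 112.6 CPM in library 1 and 32.6 in library 2 and fell below the excitatory-like level in library 2 alone, where the log2 fold was -0.67, and its call was lost under all 8 tested alternatives. Thus 4 of 8 genes were higher and 2 lower, against 14.5% of all genes passing (7.12% higher and 7.39% lower), and 3 higher without the Nfic call. The summed astrocyte markers of this class were 571 and 277 CPM, against 6926 and 6517 in astrocyte-like cells, with 1 of the 10 markers at 10 CPM or more and 7 and 9 of them at 0. The oligodendrocyte markers summed to 237 and 81.6 CPM, with 6 and 4 of 8 at 10 CPM or more, and their part was not tested.

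Mesencephalic trigeminal-like neurons, the stretch-sensing cells beside the locus coeruleus marked by Piezo2 and Pou4f1, had high Ebf1 and Nfic. Ebf1 was 858.9 and 837.3 CPM, against 235.9 and 300.1 in excitatory-like neurons, and was detected in 11 of 11 and 36 of 37 cells. Nfic was 311.9 and 305.9 CPM against 43.1 and 45.8. For both genes this was the highest level of any neuron class. Nfic rose by 2.78 ± 0.31 (6.89-fold, edgeR adjusted p = 5.18e-16), Ebf1 by 1.70 ± 0.30 (3.24-fold, edgeR adjusted p = 4.45e-07), and Nfia, at 120.9 and 213.6 CPM, by 2.06 ± 0.37 (edgeR adjusted p = 5.23e-07). Nfib and Nfix did not pass, at 19.2 and 47.9 CPM and 2.75 and 13.7 CPM, so Nfia was present with little Nfib and Nfix. Ebf2 had 3 UMIs in this class against 508, a pooled ratio of 0.00904 with a 95% counting interval of 0.00186 to 0.0266 (edgeR adjusted p = 9.84e-30). Ebf3 was 63.2 and 47.9 CPM, -1.36 ± 0.32 (edgeR adjusted p = 0.000257, lost with DESeq2). The count was 3 higher and 2 lower of 8, where 28.6% of all genes passed, 14.7% higher and 13.9% lower. Astrocyte markers summed to 420 and 506 CPM and Schwann cell markers to 311 and 260 CPM in this class, which holds the highest Schwann level of the 10 classes. Each of these sums came mostly from a single marker, with 1 of 10 astrocyte and 1 of 3 Schwann markers at 10 CPM or more in both libraries, and 9 and 5 of the 10 astrocyte markers at 0.

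Astrocyte-like cells had the highest Nfia of the 10 classes, 1801 and 1866 CPM, without overlap with the next class. Nfib was 669.5 and 786.9 CPM, near that of granule-like neurons, and Nfix 277.0 and 266.1. Against excitatory-like neurons Nfia was 47.8-fold higher (log2 5.58 ± 0.38, edgeR adjusted p = 1.6e-36), Nfix 23.6-fold (4.56 ± 0.44, edgeR adjusted p = 1.02e-20) and Nfib 17.3-fold (4.11 ± 0.36, edgeR adjusted p = 4.83e-24). Nfic was 92.4 and 127.4 CPM, with 1.40 ± 0.41 (edgeR adjusted p = 0.00327). The Ebf genes were low in the same cells. Ebf1 was 34.6 and 52.5 CPM, at -2.39 ± 0.45 (edgeR adjusted p = 1.9e-06), and Ebf2 was 0 and 14.99 CPM, 4 UMIs in all, at -4.71 ± 0.58 (edgeR adjusted p = 2.07e-13). Ebf3 had 3 UMIs against 323, a pooled ratio of 0.0528 with a counting interval of 0.0108 to 0.156 (edgeR adjusted p = 7.75e-08). Hence 4 of the 8 were higher and 3 lower, where 32.2% of all genes passed, 15.3% higher and 16.9% lower. Nfic was the one of these 7 that turned with 2 times the marker UMIs, to -0.47, and there the excitatory-like class had 488.5 and 708.2 CPM of trigeminal markers in place of 32.0 and 95.9, and 130.2 and 215.4 CPM of Nfic in place of 43.1 and 45.8.

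Among glia, the nuclear factor I genes did not move as one. Oligodendrocyte-like cells, the myelinating class, had 404.3 and 389.1 CPM of Nfia, 206.8 and 289.1 of Nfib and 383.1 and 442.6 of Nfix. Astrocyte-like cells were higher than these by 1.91 ± 0.31 for Nfia (3.75-fold, edgeR adjusted p = 2.8e-08) and 1.25 ± 0.31 for Nfib (2.38-fold, edgeR adjusted p = 0.00053). Nfix ran against them and was lower in astrocyte-like cells by -0.94 ± 0.32 (edgeR adjusted p = 0.0162), a call lost with DESeq2. Ebf1 was 7.05 and 15.5 CPM in oligodendrocyte-like cells, its lowest mean of the 10 classes. Its order against noradrenergic-like neurons rests on 1 cell, which held all 37 of their Ebf1 UMIs in library 1. Without that cell the noradrenergic-like level in library 1 was 0 CPM, and in library 2 it was 13.6 CPM, both below the oligodendrocyte-like levels. Ebf1 was higher in astrocyte-like than in oligodendrocyte-like cells by 1.58 ± 0.60 on 17 UMIs against 21 (edgeR adjusted p = 0.0353). That Ebf1 call was lost with no filter on low counts, with only both classes in the fit, with no doublet removal and with 2 times the marker UMIs, where the log2 fold was 1.52, 1.73, 1.22 and 1.28. Ebf4 had 12 UMIs against 2, a pooled ratio of 26.9 with a counting interval of 5.99 to 247 (edgeR adjusted p = 0.000238). The result was 4 higher and 1 lower of 8, beside 28.1% of all genes, 13.8% higher and 14.3% lower.

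Oligodendrocyte precursor-like cells kept more Ebf1 than the myelinating class. Ebf1 was 179.6 and 204.7 CPM in them, 10.9-fold higher (log2 3.44 ± 0.55, edgeR adjusted p = 2.79e-08), with both libraries far apart from the oligodendrocyte-like ones. Nfix was 192.4 and 157.5 CPM and lower by -1.63 ± 0.39 (3.10-fold, edgeR adjusted p = 0.000417). Nfic, at 38.5 and 63.0 CPM on 7 UMIs, was lower by -1.61 ± 0.58 (edgeR adjusted p = 0.0314) and lost its call with DESeq2, with the size factors of the other scaling (RLE), with only both classes in the fit, with 2 times the marker UMIs and with 500 genes per cell. Nfia (666.9 and 566.9 CPM) and Nfib (436.1 and 236.2 CPM) did not pass, at 0.22 ± 0.34 and 0.09 ± 0.37. Ebf4 was 38.5 and 78.7 CPM, overlapping the 44.7 and 9.30 CPM of ependymal-like cells, with 8 UMIs against 2 and a pooled ratio of 44.8 with a counting interval of 8.94 to 433 (edgeR adjusted p = 0.000167). This made 2 higher and 2 lower of 8, where 20.6% of all genes passed, 9.90% higher and 10.7% lower. The median log2 fold of all genes in this comparison was -0.31, so the members' folds are read against that shift.

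Ependymal-like cells, the ciliated lining of the ventricle, came second for Nfia, at 1218 and 892.4 CPM, and first for Nfix, at 480.6 and 502.0 CPM. Nfix was higher than in astrocyte-like cells by 0.93 ± 0.34 (1.90-fold, edgeR adjusted p = 0.0412), the single one of the 8 that passed, beside 18.3% of all genes, 10.5% higher and 7.79% lower. That call was lost with DESeq2 and 5 other alternatives, with log2 folds of 0.66 to 1.07. Nfia and Nfib were lower in both libraries without passing, at -0.75 ± 0.31 and -0.76 ± 0.33. Ebf3 had 0 UMIs in 13 and 49 ependymal-like cells, and 3 in all astrocyte-like cells, so no fold is given.

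**Figure D4:**
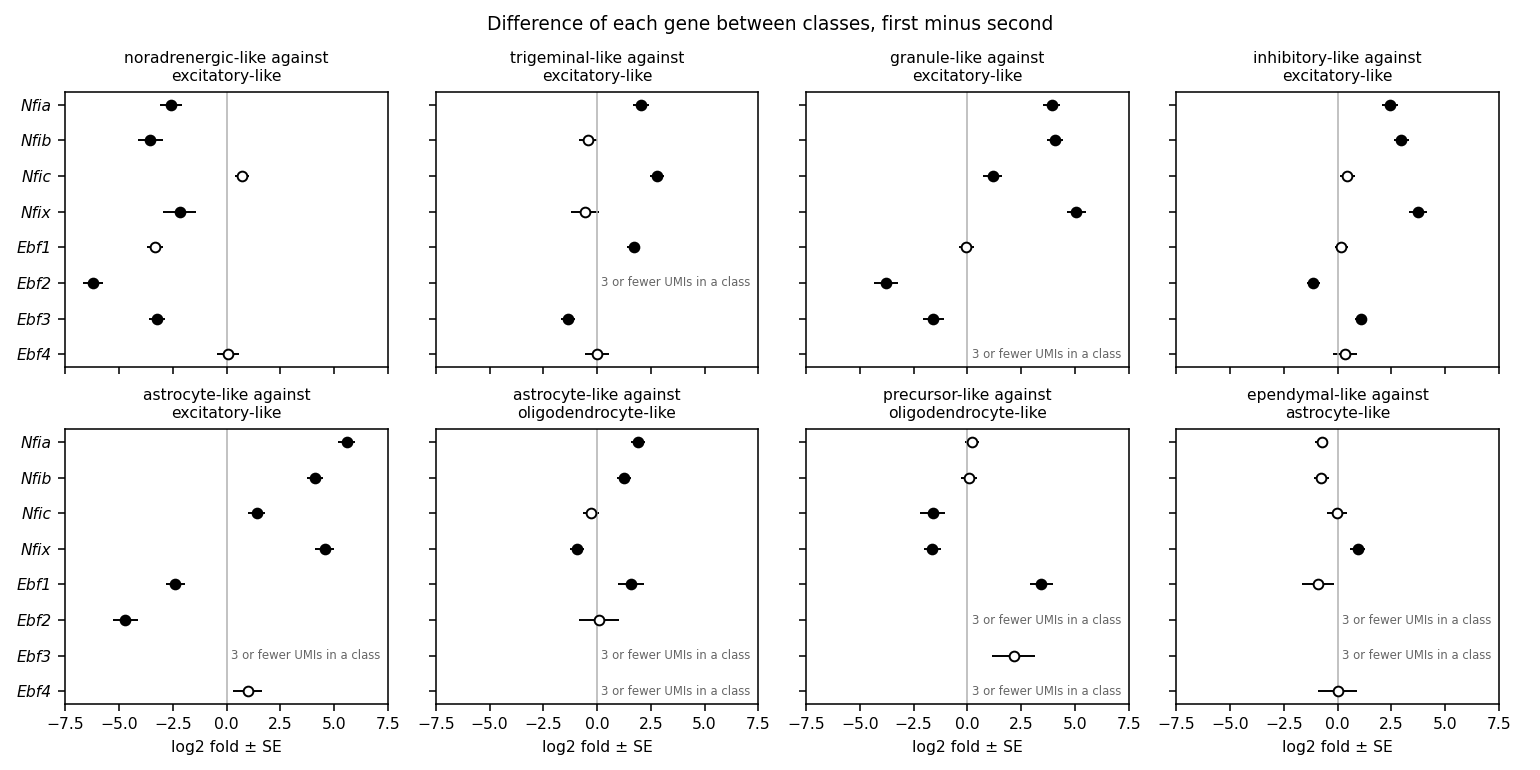
Log2 fold with its SE for each gene in the 8 comparisons, first class minus second. Filled points passed edgeR's adjusted 0.05, open points did not, or were given without a test (Ebf1 in the noradrenergic-like comparison), and genes with 3 or fewer UMIs in a class carry no fold.

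Vessel cells held the most Ebf1. Endothelial-like cells had 2653 and 2636 CPM, with UMIs in 5 of 5 and 119 of 145 cells. The mural-like cells, 1 and 11 in number and too few for a test, had 6138 and 5155 CPM, with UMIs in all 12 of them. Mural markers summed to 1906 and 721 CPM in endothelial-like cells and to 7047 and 3892 in mural-like ones, and their part in the endothelial-like Ebf1 level was not tested. Ebf2, Ebf3 and Ebf4 were near 0 in endothelial-like cells, with 3, 4 and 0 UMIs. Nfia was 952.8 and 599.7 CPM and Nfib 386.3 and 619.9, while Nfix was lower, 77.3 and 75.6 CPM. The comparison of mural- or fibroblast-like with endothelial-like cells could not be fitted, since library 1 had 2 mural- and fibroblast-like cells and 5 were required.

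In the order of levels over the 10 classes, several neighbours were not separated by both libraries. For Nfia, ependymal-like, endothelial-like, precursor-like and granule-like cells overlapped each with the next, while astrocyte-like cells stood above and excitatory-like and noradrenergic-like neurons below. For Ebf1, endothelial-like cells and trigeminal-like neurons were each separate from the next class, and inhibitory-like, excitatory-like and granule-like neurons overlapped. Ebf4 had no class separated at the top and was at most 78.7 CPM in any class.

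Over the 20 class sums (10 classes in 2 libraries, which share library, depth and the glial classes), Nfia, Nfib and Nfix went together. Pearson's r of log2(CPM + 5), given as a description, was 0.916 for Nfia and Nfib, 0.9 for Nfib and Nfix and 0.834 for Nfia and Nfix. Nfic was apart from them, at 0.121, -0.158 and -0.122. Among the Ebf genes r was 0.738 for Ebf2 and Ebf3, 0.518 for Ebf1 and Ebf3 and 0.277 for Ebf1 and Ebf2. Of 7328 genes with a mean of 20 CPM or more, the closest to Nfia were Nfib, Phf21a (0.894) and Phf21b (0.891), and the closest to Nfib were Nfia, Tcf4 (0.902), a basic helix-loop-helix factor, and Nfix. Nfix was followed by Nfib, Chd7 (0.897), a chromatin remodeller, and Kat6a (0.877), a histone acetyltransferase. Nfic was closest to Bag3 (0.771), Piezo2 (0.766) and Wls (0.753). Piezo2 is a marker used for the trigeminal-like class. Ebf1 was closest to Ttc7b (0.891), Prkg1 (0.889) and Epb41 (0.867), Ebf2 to Bcl11a (0.792), Col25a1 (0.783) and Necab1 (0.782), and Ebf3 to Gm40841 (0.890), Chd3 (0.885) and Bcl11a (0.872). Ebf4 was under the mean of 20 CPM and was not ranked.

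Of 11 genes that other work links to nuclear factor I proteins, 9 were tested. In granule-like against excitatory-like neurons 4 rose and 0 fell, where 14.5% of all genes passed, with a list median of 1.61 against -0.13 for all genes. Gabra6, the granule cell subunit of the GABA-A receptor, was 273.4 and 97.9 CPM against 0 UMIs, and Zcchc24, described as a joint target of Nfia and Sox9 in the spinal cord, had 5 UMIs against 2, all 5 in library 1, and was at 0 in granule-like neurons of library 2 against 2.08 CPM in excitatory-like ones. In astrocyte-like against excitatory-like cells 4 rose and 1 fell, where 32.2% of all genes passed (median 2.37 against -0.12). Zcchc24 was 127.0 and 191.1 CPM there, 62 UMIs against 2 (edgeR adjusted p = 1.37e-23). Sox9, the glial transcription factor that acts with Nfia in the spinal cord, was 161.6 and 123.7 CPM against 2.61 and 0, 6.19 ± 0.66 (edgeR adjusted p = 2.45e-17). The gene that fell was Cntn2, an adhesion protein, with 2 UMIs against 115. Against oligodendrocyte-like cells the list had 3 higher and 1 lower in astrocyte-like cells, where 28.1% of all genes passed. Sox9 was at 4.52 ± 0.60 (edgeR adjusted p = 5.52e-12) and Mmd2, a further joint target, at 3.07 ± 0.37 (edgeR adjusted p = 2.63e-14). Noradrenergic-like and inhibitory-like neurons had 0 of 9 called in either direction, trigeminal-like 1 higher and 1 lower, precursor-like 0 and 1, and ependymal-like 1 and 3. In that order, 17.1%, 1.39%, 28.6%, 20.6% and 18.3% of all genes passed. Of 6 Ebf partners and upstream factors, 2 were tested, the zinc finger proteins Zfp423 and Zfp521, which bind Ebf proteins. Zfp521 was 62.8 and 59.8 CPM in noradrenergic-like against 128.1 and 135.5 in excitatory-like neurons, -1.13 ± 0.31 (edgeR adjusted p = 0.00303), while Zfp423 did not pass. Both were higher in astrocyte-like cells than in excitatory-like neurons and than in oligodendrocyte-like cells, with Zfp423 at 3.38 ± 0.41 in the latter (edgeR adjusted p = 5.47e-14). The shares of all genes passing were 17.1% in the noradrenergic-like comparison and 32.2% and 28.1% in these astrocyte-like ones.

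Of 17 other transcription factors of hindbrain neurons, 15 were tested. In noradrenergic-like neurons 3 rose and 6 fell, where 17.1% of all genes passed, and the list median was -0.46 against 0.00 for all genes. The risers included Phox2a, which specifies noradrenergic neurons, at 5.00 ± 0.64 (edgeR adjusted p = 4.17e-12), while Meis1 fell by 2.75 ± 0.39 (edgeR adjusted p = 3.25e-10) and Pou3f1 had 1 UMI against 20 (edgeR adjusted p = 0.00117). The counts were 2 up and 6 down in trigeminal-like, 3 and 7 in granule-like and 2 and 5 in inhibitory-like neurons, each against the same excitatory-like class, where 28.6%, 14.5% and 1.39% of all genes passed. The list medians were -1.86, -1.78 and -1.30, against -0.04, -0.13 and -0.01 for all genes. In the glial comparisons they were 3 and 8 for astrocyte-like against excitatory-like cells, 3 and 3 for astrocyte-like and also for precursor-like against oligodendrocyte-like cells, and 1 and 3 for ependymal-like against astrocyte-like cells, where 32.2%, 28.1%, 20.6% and 18.3% of all genes passed. Their list medians were -1.97, 0.00, -0.14 and -0.34, against -0.12, -0.05, -0.31 and -0.08 for all genes. Tcf4, among the genes closest to Nfib, rose in granule-like neurons by 2.78 ± 0.33 (edgeR adjusted p = 2.01e-13) and in inhibitory-like neurons by 1.505 ± 0.316 (edgeR adjusted p = 0.000487).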

How the data were processed

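The deposited values were UMI counts per gene and barcode of 2 droplet libraries, made by the authors with Cell Ranger (version 6.1.2 per the file headers, 7.0 per the submitters' processing notes, which also name Seurat, mm10 and GRCm38); whether intronic reads were counted is not given in the sources used here. The genes, lists and class gates were chosen with earlier results of these data, or their marker UMIs, known. Cells entered with 300 or more genes and no more than 20% of UMIs from mitochondria, and the top Scrublet scores (scanpy 1.11.5, 0.8% per 1000 barcodes, 1 and 60 barcodes) removed as doublets. A neuron needed at least 2000 CPM and 2 genes of a pan-neuronal list. A class needed at least 2 of its markers, at least 1000 CPM of them and 2 times the next list; excitatory and inhibitory neurons needed 2 UMIs of theirs. Counts were summed per class and library and fitted in 1 model (edgeR 4.0.16, R 4.3.3, quasi-likelihood, TMM, filterByExpr): 20 sums, 10 classes, and the library as a block, since class sums of 1 library share it; 9 residual degrees of freedom. The fit was tested on simulated data. All 8 members passed the filter on low counts. Named genes were the 8 members, the 3 closest genes of each, and of each list those with the largest called folds, not all of which are printed. Alternatives were RLE scaling, DESeq2 1.42.0, no count filter, other fits, gates and cell filters, and each library alone. Intervals cover counting error only.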

Additional observations from a re-analysis of the deposited data

How the results depend on the processing

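Without Ebf1 in noradrenergic-like neurons, whose call is not used, 38 of 63 folds of members passed, beside 20.1% of the folds of all genes over the same 8 comparisons. The members were picked knowing that some differ between these cells, and the comparisons that share the excitatory-like class are not independent. The 38 of 63 is therefore a description and no evidence that the members differ more often than other genes. Of the 38 folds, 27 kept call and direction under every tested alternative that could be fitted. In 37 of the 38, library 1 and library 2 taken alone had the direction of the joint fit; the exception was Nfic in granule-like against excitatory-like neurons, 1.18 in the joint fit, 1.25 without library 2 and -0.67 without library 1. Leaving out a library leaves no residual degrees of freedom, so no call was made there.

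The number of the 8 members called changed by over 1.5 times in a few settings. In inhibitory-like against excitatory-like neurons it was 5 (1.39% of all genes), and 3 with DESeq2 (0.504%) and 3 with no replicate block, that is without the library as a block (0.892%). In ependymal-like against astrocyte-like cells it was 1 (18.3% of all genes), and 0 with DESeq2 (15.3%), with no low-count filter (6.88%), with no replicate block (17.3%), with 2 times the marker UMIs (18.5%), with at least 500 genes per cell (17.5%) and with no doublet removal (17.8%). With only both classes in the fit it was 3 in place of 5 for astrocyte-like and 2 in place of 4 for precursor-like against oligodendrocyte-like cells (37.8% and 37.5% of all genes), but 5 of the 8 members could be tested there: Ebf4 was not among them, and Ebf1 and Nfic lost their calls, in that order. The block changed no other count by that much.

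With 2 times the marker UMIs, Nfic turned from 1.18 to -0.75 in granule-like, from 1.40 to -0.47 in astrocyte-like, from 0.72 to -1.09 in noradrenergic-like and from 0.45 to -1.69 in inhibitory-like against excitatory-like cells. That gate lets cells that meet only the trigeminal rule of the main gate enter the excitatory-like class, whose trigeminal markers and Nfic rose as the report gives. The size of that class also changed, from 66 and 77 to 49 and 19 cells. The part of either in the turned Nfic folds was not tested. No trigeminal-like value exists under this gate, since 3 cells of library 1 passed. Nfic had not passed in the main fit in noradrenergic-like and inhibitory-like neurons (edgeR adjusted p = 0.12 and 0.955). Under this gate it passed there as lower (edgeR adjusted p = 0.0096 and 0.000428). In granule-like and astrocyte-like cells it had passed and no longer did. In inhibitory-like neurons the count of members called stayed at 5, with Nfic in place of Ebf2. The remaining turned values passed neither before nor after. Under the same gate they were Ebf4 in noradrenergic-like (-0.04) and Ebf1 in inhibitory-like neurons (-0.45), Ebf3 (-4.56) and Ebf2 (-0.43) in precursor-like and Ebf2 in ependymal-like cells (-0.84). In ependymal-like against astrocyte-like cells Nfic became 0.18 with DESeq2, 0.17 with RLE, 0.01 with no doublet removal, 0.07 with no low-count filter and 0.22 with only both classes in the fit, Ebf4 0.21 with DESeq2, 0.20 with RLE and 0.07 with no low-count filter, and Ebf2 -0.09 with no replicate block. In astrocyte-like against oligodendrocyte-like cells Ebf2 became -0.17 with 500 genes per cell and -0.24 with no doublet removal, Nfib in precursor-like cells -0.07 with no low-count filter, and Ebf4 in trigeminal-like neurons -0.11 with only both classes in the fit. The cause of these changes was not tested.

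Library 1 has 5 endothelial-like, 11 trigeminal-like and 11 precursor-like cells, so those levels rest on few cells, and genes with few UMIs in a class, Ebf4 above all, could not be ranked.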
